A study of Mus musculus with 8 samples.

Results

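The cone opsin and cone cascade genes form a set of 10 genes, *Opn1sw*, *Opn1mw*, *Arr3*, *Gnat2*, *Gnb3*, *Gngt2*, *Pde6c*, *Pde6h*, *Cnga3* and *Cngb3*, chosen by symbol for their known place in cone phototransduction. All 10 were found among the 23284 gene symbols counted, and all 10 passed the filter on low counts that left 15106 genes for testing. The libraries were made from peripheral retina of mice at postnatal day 12. The 4 Rb-null TET-MYCN libraries carried, per the labels, Cre recombinase under the alpha enhancer of Pax6, a Cre-dependent Rosa26 transactivator (LSL-RTTA) and a TRE-driven MYCN transgene. The 4 Rb-null libraries carried the same Cre with floxed Rb alleles. The genotype label and the series title place the Rb deletion in both groups, while the design text repeats the floxed allele only for the Rb-null group, and no doxycycline treatment is given there. The Pax6 enhancer is known to act in progenitors of the peripheral retina, and dissected tissue may also hold cells without Cre.

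Cones are the photoreceptors of daylight and colour vision. Light isomerises the chromophore of a cone opsin, the opsin activates cone transducin, transducin releases the inhibition of a phosphodiesterase that destroys cyclic GMP, and the fall in cyclic GMP closes a cation channel. Arrestin then quenches the opsin. Mouse cones use a short-wave opsin, strongest in ventral retina, and a medium-wave opsin, strongest in dorsal retina, and many cones make both. The medium-wave opsin comes on later in postnatal life and depends on thyroid hormone acting through the receptor gene *Thrb*.

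The stretches of DNA just before the starts of 4 of these genes are shown because the 2 opsins are compared with each other below and because *Arr3* and *Gnat2* are widely used as general cone markers. The sequences are from RefSeq on build GRCm38.p6, 5′ to 3′ on the gene's own strand, and end at the base before the start. Capitals mark matches, on either strand, to TAATCC or TAATCT, the core bound by the photoreceptor factor CRX and its close variant, or to AGGTCA, the half-site of nuclear receptors such as the thyroid hormone receptor. CACGTG, the E-box bound by MYC family proteins with MAX, was searched as well and had no match in these stretches. The stretches lie at chr6:29380514-29380723 on the minus strand for *Opn1sw*, chrX:74127256-74127465 on the plus strand for *Opn1mw*, chrX:100605287-100605496 on the plus strand for *Arr3*, and chr3:108092856-108093065 on the plus strand for *Gnat2*.
Opn1sw: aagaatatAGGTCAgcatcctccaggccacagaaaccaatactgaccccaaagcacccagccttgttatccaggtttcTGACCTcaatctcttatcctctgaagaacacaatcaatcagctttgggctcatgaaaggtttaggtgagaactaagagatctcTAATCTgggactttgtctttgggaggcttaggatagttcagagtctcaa
Opn1mw: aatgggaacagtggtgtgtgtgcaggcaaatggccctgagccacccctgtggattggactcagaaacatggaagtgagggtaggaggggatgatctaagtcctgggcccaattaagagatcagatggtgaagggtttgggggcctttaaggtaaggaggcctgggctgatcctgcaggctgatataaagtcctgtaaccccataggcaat
Arr3: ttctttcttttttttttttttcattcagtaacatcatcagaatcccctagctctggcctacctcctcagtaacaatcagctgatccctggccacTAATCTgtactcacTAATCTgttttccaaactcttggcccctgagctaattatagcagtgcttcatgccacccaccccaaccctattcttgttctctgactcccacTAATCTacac
Gnat2: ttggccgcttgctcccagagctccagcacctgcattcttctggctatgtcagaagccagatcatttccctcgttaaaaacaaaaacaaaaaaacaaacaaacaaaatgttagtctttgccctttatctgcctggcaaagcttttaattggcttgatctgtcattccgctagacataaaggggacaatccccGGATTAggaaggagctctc

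RefSeq promoter entries matched 6 of the 10 genes, with 7 start sites. In the 250 bases before each start, *Arr3* held 3 matches to TAATCT, *Opn1sw* held 1 match to TAATCT and 2 to AGGTCA, and *Gnat2* held 1 match to TAATCC. *Opn1mw*, *Pde6h* and both starts of *Cnga3* held none of the 4 motifs. At least 1 of TAATCC and TAATCT stood in 3 of the 7 windows, against 12.8% of all 32851 promoter windows of the same length. AGGTCA stood in 1 of the 7, against 14% of all windows, and CACGTG in 0 of the 7, against 6.02%. These are letter matches and not measured binding.

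Gene counts ranged from 16166000 to 22873979 in the Rb-null TET-MYCN libraries and from 14872131 to 20007977 in the Rb-null libraries. The targeted genes check the labels little. *Mycn* averaged 242 ± 37.6 CPM in Rb-null TET-MYCN and 231 ± 94.96 CPM in Rb-null libraries (CPM, reads of a gene scaled to a fixed library size; SD, n = 4 each). *Rb1* averaged 154 ± 23.6 CPM in Rb-null TET-MYCN and 161 ± 21.9 CPM in Rb-null libraries. Reads of the MYCN transgene need not be counted at mouse *Mycn*, and a recombined *Rb1* allele keeps most exons. Rb-null 2 and 3 were rich in lens reads: 9 lens markers summed to 304 and 518 CPM there, against 38.6 to 93.5 CPM in the Rb-null TET-MYCN libraries and 49.6 and 112 CPM in Rb-null 1 and 4. TET-MYCN 3 had the highest share of multiply aligned reads, at 12.8%.

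Every one of the 10 cone genes had a lower mean in the Rb-null TET-MYCN libraries than in the Rb-null libraries, and none passed the test. Their log2 fold changes (Rb-null TET-MYCN over Rb-null) ran from -1.31 to -0.14, with a median of -0.84, where the median over all 15106 genes was 0.01 and 47.8% of genes were negative. At a Benjamini-Hochberg adjusted p under 0.05 by edgeR's quasi-likelihood test, 0 of the 10 were called, against 0.0596% of all genes in either direction (9 genes) and 0.00662% as lower (1 gene), and their adjusted p lay between 0.220 and 0.868. At an unadjusted p under 0.05, 2 of the 10 passed as lower, *Arr3* and *Gnb3*, against 7.72% of all genes. DESeq2 called 0 of the 10, against 1.46% of genes as lower, with a lowest adjusted p of 0.0543. Limma-voom called 0 of all 15106 genes, and therefore 0 of the 10. An unadjusted p under 0.05 was reached by 4 of them in DESeq2 (8.67% of all genes as lower) and by 2 in limma-voom (7.55%). Only *Arr3* had groups that did not overlap, where 3.29% of all genes had non-overlapping groups with the Rb-null TET-MYCN libraries lower. In bulk tissue, fewer cones and less RNA per cone cannot be told apart.

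The high values sat in 2 libraries. Of the 10 genes, 9 were highest in Rb-null 3, and 7 were lowest in TET-MYCN 4. In Rb-null 3, 9 of the 10 genes lay above the whole range of the Rb-null TET-MYCN libraries, and in Rb-null 4, 8 did. In each of Rb-null 1 and Rb-null 2, 8 of the 10 lay within that range. Without Rb-null 3 the median log2 fold change was -0.39, with all 10 still negative, and without both lens-rich libraries it was -0.61. The part of lens reads in these values was not tested. Without either TET-MYCN 1 or TET-MYCN 4, 9 of the 10 were negative, *Gngt2* being the exception. The number of the 10 genes lower at an unadjusted p under 0.05 by edgeR turned on single libraries. It was 8 without Rb-null 2 (8.99% of all genes), 7 without TET-MYCN 3 (10.9%), 5 without Rb-null 1 (6.74%), 1 without Rb-null 3 (3.89%) and 1 without TET-MYCN 4 (4.74%). Without TET-MYCN 3, *Gnat2* and *Gnb3* joined *Arr3* among the genes whose groups did not overlap, against 8.62% of all genes.

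**Figure D1:**
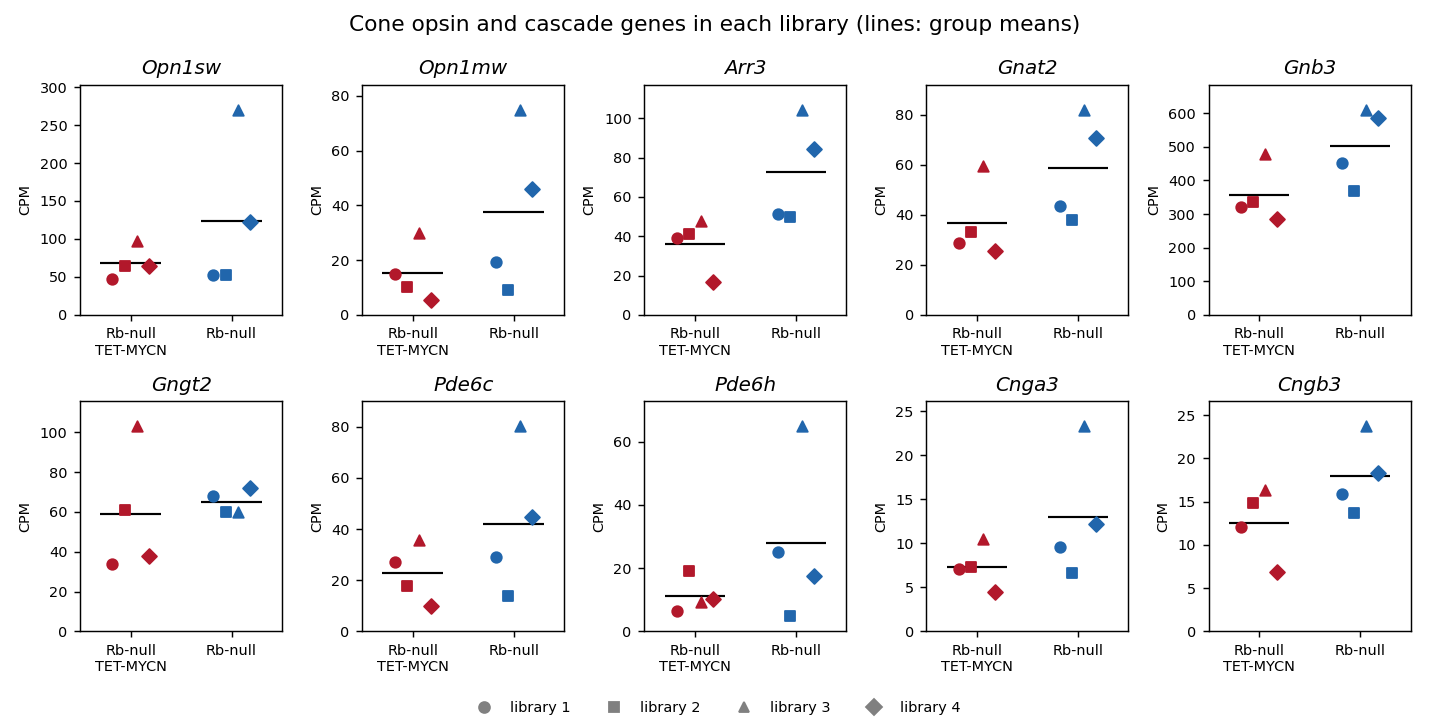
Level of each of the 10 cone genes in CPM (y axis, each panel with its own scale from 0) in the 4 Rb-null TET-MYCN libraries (red) and the 4 Rb-null libraries (blue), with marker shape giving the library number and lines the group means. Rb-null 3 (blue triangle) is the highest library for 9 of the 10 genes, and only for Arr3 do the groups not overlap.

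Among the opsins, *Opn1sw* codes for the short-wave opsin. It measured 47.6, 63.9, 97.9 and 64.9 CPM in TET-MYCN 1 to 4, against 52.0, 52.4, 270 and 122 CPM in Rb-null 1 to 4. Rb-null 3 and 4 were the only libraries above 100 CPM, while Rb-null 1 and 2 lay inside the range of the other group. The log2 fold change was -0.86 ± 0.49 (SE; adjusted p = 0.421, edgeR), and without Rb-null 3 it was -0.14 ± 0.33. On GENCODE M21, *Opn1sw* shares 397 of the 2410 bases of its principal transcript with *Calu*, a calcium-binding protein gene on the opposite strand. *Calu* varied little, at 207 ± 4.30 CPM in Rb-null TET-MYCN and 194 ± 11.7 CPM in Rb-null libraries, and was lowest in Rb-null 3 (180 CPM). If counting ignored strand, reads in the shared bases may have been left out as ambiguous. Any such loss of *Opn1sw* reads was not measured.

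*Opn1mw* codes for the medium-wave opsin. Its levels were 15.01, 10.3, 30.0 and 5.29 CPM in TET-MYCN 1 to 4, against 19.3, 9.23, 75.0 and 46.0 CPM in Rb-null 1 to 4. Its spread was wide in both groups, 5.67-fold between the lowest and highest Rb-null TET-MYCN libraries and 8.12-fold among the Rb-null libraries, and Rb-null 2 lay below 3 of the 4 TET-MYCN libraries. The log2 fold change was -1.31 ± 0.65 (adjusted p = 0.355, edgeR), and it was -0.72 ± 0.61 without Rb-null 3.

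Short- and medium-wave opsin were then compared within each library, which does not depend on the scaling between libraries. *Opn1sw* reads outnumbered *Opn1mw* reads in 8 of 8 libraries. Of the reads on both genes, *Opn1sw* took 76.0% (95% Wilson interval 73.3 to 78.6), 86.1% (84.4 to 87.7), 76.6% (74.8 to 78.3) and 92.5% (91.0 to 93.7) in TET-MYCN 1 to 4. It took 72.9% (70.5 to 75.2), 85.0% (82.7 to 87.1), 78.3% (77.2 to 79.4) and 72.7% (70.9 to 74.4) in Rb-null 1 to 4. These intervals cover counting error only. The groups overlapped, and TET-MYCN 4, with 1288 *Opn1sw* and 105 *Opn1mw* reads, lay above every other library.

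The log2 ratio of *Opn1sw* to *Opn1mw* averaged 2.40 ± 0.92 in Rb-null TET-MYCN and 1.8 ± 0.51 in Rb-null libraries (SD, n = 4 each). The difference of 0.61 ± 0.53 (SE) did not pass the two-sided exact permutation test over 70 arrangements (p = 0.286, where the smallest p possible is 0.0286). Without TET-MYCN 4 the difference was 0.20. Per kilobase of coding sequence, *Opn1sw* exceeded *Opn1mw* 3.29-, 6.42-, 3.39- and 12.7-fold in TET-MYCN 1 to 4, against 2.79-, 5.88-, 3.74- and 2.75-fold in Rb-null 1 to 4. Per kilobase of the principal transcript, where M21 gives *Opn1sw* a long untranslated part, the ratio was 1.61 to 6.22 in Rb-null TET-MYCN libraries and 1.35 to 2.88 in Rb-null libraries, so that short-wave opsin stood above medium-wave opsin in every library by either length.

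**Figure D2:**
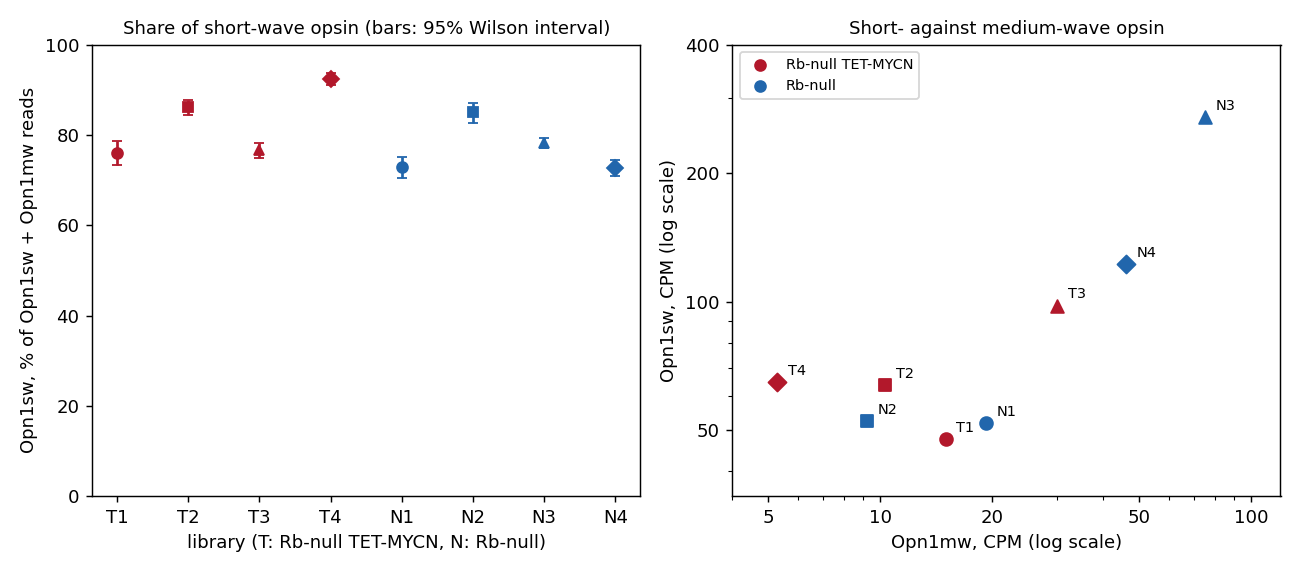
Left, share of Opn1sw among all Opn1sw and Opn1mw reads in percent for Rb-null TET-MYCN libraries 1 to 4 (T1 to T4, red) and Rb-null libraries 1 to 4 (N1 to N4, blue), with 95% Wilson intervals; right, Opn1sw against Opn1mw level in CPM, both on log axes. T4 has the highest share (92.5%), and N3 the highest level of both opsins.

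Arrestin-C, the product of *Arr3*, binds activated cone opsin and ends its signal. *Arr3* stood at 39.4, 41.2, 47.8 and 16.5 CPM in TET-MYCN 1 to 4, against 51.1, 49.9, 104 and 84.5 CPM in Rb-null 1 to 4. Every TET-MYCN library lay below every Rb-null library, TET-MYCN 3 just below Rb-null 2, and TET-MYCN 4 was the lowest of all. The log2 fold change was -1.001 ± 0.33 (adjusted p = 0.220, edgeR), and it was -0.77 ± 0.33 without Rb-null 3.

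Transducin has alpha, beta and gamma subunits. *Gnat2*, the cone alpha subunit, stood at 28.9, 33.0, 59.6 and 25.7 CPM in TET-MYCN 1 to 4, against 43.5, 38.1, 82.1 and 70.6 CPM in Rb-null 1 to 4, which gave a fold change of -0.67 ± 0.31 on the log2 scale (adjusted p = 0.327, edgeR). The overlap came from TET-MYCN 3, which exceeded Rb-null 1 and 2. *Gnb3*, the beta subunit of cones, is also used by ON bipolar cells. It reached 321, 336, 480 and 286 CPM in TET-MYCN 1 to 4, against 451, 368, 611 and 585 CPM in Rb-null 1 to 4 (log2 fold change -0.50 ± 0.20, adjusted p = 0.278, edgeR). *Gnb3* alone made up 53.9% to 61.1% of the summed CPM of the 10 genes in Rb-null TET-MYCN libraries and 43.8% to 59.7% in Rb-null libraries.

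Among markers of ON bipolar cells, 9 of 9 were likewise negative (median log2 fold change -0.72), with 0 called by edgeR and 6 lower at an unadjusted p under 0.05 (7.72% of all genes). Their summed level was 586 to 761 CPM in Rb-null TET-MYCN and 720 to 1457 CPM in Rb-null libraries, and its part in the *Gnb3* result was not tested. *Gngt2*, the cone gamma subunit, had the fold change nearest to 0. It reached 33.8, 60.8, 103 and 38.1 CPM in TET-MYCN 1 to 4, against 68.1, 59.7, 60.0 and 71.9 CPM in Rb-null 1 to 4. It was the only gene of the 10 with its highest value in a TET-MYCN library and was nearly level across the Rb-null libraries, at 65.0 ± 6.07 CPM. Its log2 fold change was -0.14 ± 0.30 (adjusted p = 0.868, edgeR) and changed sign, to 0.04 and 0.02, without TET-MYCN 1 and without TET-MYCN 4.

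For the phosphodiesterase, *Pde6c* codes for the catalytic subunit and *Pde6h* for the small inhibitory subunit. *Pde6c* stood at 27.0, 17.7, 35.8 and 10.1 CPM in TET-MYCN 1 to 4, against 29.2, 13.7, 80.2 and 44.7 CPM in Rb-null 1 to 4 (log2 fold change -0.89 ± 0.51, adjusted p = 0.419, edgeR). *Pde6h* stood at 6.43, 19.1, 9.39 and 10.3 CPM in TET-MYCN 1 to 4, against 25.0, 4.74, 64.9 and 17.4 CPM in Rb-null 1 to 4 (log2 fold change -1.30 ± 0.63, adjusted p = 0.350, edgeR). The Rb-null libraries differed 13.7-fold among themselves for *Pde6h*, from 78 reads in Rb-null 2 to 990 in Rb-null 3, the widest spread of the 10 genes in either group. Without Rb-null 3 the log2 fold changes were -0.37 ± 0.45 for *Pde6c* and -0.47 ± 0.51 for *Pde6h*.

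The cation channel is built from the products of *Cnga3* and *Cngb3*. *Cnga3*, the principal channel subunit, stood at 7.04, 7.27, 10.5 and 4.48 CPM in TET-MYCN 1 to 4, against 9.62, 6.68, 23.3 and 12.2 CPM in Rb-null 1 to 4 (log2 fold change -0.82 ± 0.38, adjusted p = 0.323, edgeR). *Cngb3*, the modulatory subunit, stood at 12.0, 14.8, 16.3 and 6.90 CPM in TET-MYCN 1 to 4, against 15.9, 13.7, 23.7 and 18.3 CPM in Rb-null 1 to 4 (log2 fold change -0.52 ± 0.26, adjusted p = 0.371, edgeR). Without Rb-null 3 the value of *Cnga3* was -0.38 ± 0.30, and without TET-MYCN 4 that of *Cngb3* was -0.31 ± 0.20. In both genes Rb-null 3 was highest and TET-MYCN 4 lowest, and Rb-null 2 lay within the range of the TET-MYCN libraries. The smallest read number behind any of the 10 genes in a library was 78, well above the floor of 3 reads, which stood for 0.130 to 0.202 CPM.

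Levels of different genes were set side by side per kilobase of the principal transcript. In Rb-null TET-MYCN libraries *Gnb3* came first at 193 ± 46.3 CPM per kilobase, followed by *Gngt2* at 37.1 ± 19.99, *Opn1sw* at 28.5 ± 8.76 and *Arr3* at 26.6 ± 10.1, which did not differ beyond their spread. *Gnat2* at 17.9 ± 7.54, *Opn1mw* at 12.3 ± 8.68 and *Pde6c* at 8.76 ± 4.31 came next, and their spreads between libraries also overlapped. Within each TET-MYCN library, though, these genes kept this order, with 29.0, 24.4 and 13.8 in TET-MYCN 3 and 12.5, 4.31 and 3.89 in TET-MYCN 4. *Cngb3* at 2.66 ± 0.88, *Cnga3* at 2.06 ± 0.69 and *Pde6h* at 1.91 ± 0.92 CPM per kilobase came last. In Rb-null libraries *Gnb3* was again first at 273 ± 62.0 CPM per kilobase and *Cnga3* last at 3.65 ± 2.05, within the spread of *Cngb3* at 3.80 ± 0.91. The order depends on the length used: per kilobase of coding sequence the channel genes had the lowest means, while *Gngt2* came within the spread of *Gnb3* in Rb-null TET-MYCN libraries (285 ± 153 and 349 ± 83.7 CPM per kilobase) and exceeded it in TET-MYCN 3. *Pde6h*, whose M21 transcript is mostly untranslated, stood at 45.4 ± 22.0 CPM per kilobase in Rb-null TET-MYCN and 113 ± 104 in Rb-null libraries.

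The 10 genes did not all share a profile. The likeness of a pair was measured as the root-mean-square difference of their log2 CPM over the 8 libraries, after each gene was centred on its own mean. *Gnat2* and *Gnb3* were the closest pair at 0.21, followed by *Gnb3* and *Cngb3* at 0.24 and by *Gnat2* and *Cnga3* at 0.25. *Gngt2* and *Pde6h* were the farthest apart at 1.10. The measure also depends on how much each gene varies, so genes that vary little come out close in part by construction. The root-mean-square of a gene's own centred values was lowest for *Gnb3* at 0.38 and highest for *Opn1mw* at 1.18. *Gnb3* and *Gngt2* differed by 0.36, about as much as *Gnb3* differed from a flat profile. The order of the pairs therefore partly reflects spread and not only a shared profile. The opsins differed from each other by 0.71, more than *Opn1mw* differed from *Pde6c* (0.33) or *Opn1sw* from *Cnga3* (0.41).

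Outside the 10 genes, the profiles nearest to *Arr3* among genes with a mean of at least 5 CPM were those of *Vsx1*, a transcription factor of cone bipolar cells, at 0.20, and *A530058N18Rik*, *Lhfpl3* and *BC033916* at 0.22 to 0.23. Nearest to *Opn1mw* were *Guca1a*, which codes for a guanylate cyclase activator of photoreceptors, at 0.28, the rod transducin gamma gene *Gngt1* at 0.30, *A930003A15Rik* at 0.32, the rod phosphodiesterase gene *Pde6g* at 0.34 and the bipolar cell gene *Cabp5* at 0.35. Nearest to *Opn1sw* were *Tmem90a* at 0.28, *Vax2os1* at 0.32, *Kcne2* at 0.41, *Gulo* at 0.43 and *Pla2g5* at 0.43. *Vax2os1* is a non-coding RNA transcribed opposite *Vax2*, the transcription factor of ventral retina. It measured 31.3, 40.1, 53.2 and 48.6 CPM in TET-MYCN 1 to 4, against 40.8, 50.3, 122 and 69.7 CPM in Rb-null 1 to 4. *Vax2* itself, named after its values were seen, stood at 17.7, 22.2, 32.0 and 31.7 CPM in TET-MYCN 1 to 4, against 18.6, 27.1, 37.9 and 30.1 CPM in Rb-null 1 to 4. Whether counting used strand is not stated in the labels or notes. Without strand, any reads in bases that this pair shares could not be told apart and may have been left out as ambiguous. How far *Vax2* and *Vax2os1* overlap was not measured.

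The cone genes of the cascade after the opsins have counterparts in rods, the photoreceptors of dim light, and 9 of these were set beside 8 cone genes. The log2 fold changes of the rod counterparts ran from -1.78 to -0.65 (median -1.23), with 9 of 9 negative and 0 called by edgeR. At an unadjusted p under 0.05 by edgeR, 5 of the 9 were lower, against 7.72% of all genes. Of 9 cone and rod pairings (*Pde6c* with both *Pde6a* and *Pde6b*), the rod gene had the more negative value in 8, the exception being *Pde6h* with *Pde6g* (-1.30 ± 0.63 and -1.08 ± 0.47). That exception turned without Rb-null 3 (-0.47 for *Pde6h* and -0.74 for *Pde6g*), without both lens-rich libraries, without TET-MYCN 1, without TET-MYCN 3 (alone or with Rb-null 1) and with limma-voom, and without TET-MYCN 3 *Pde6c* with *Pde6a* was an exception instead. *Gnat2* had -0.67 ± 0.31 and *Gnat1* -1.39 ± 0.63, *Arr3* -1.001 ± 0.33 and *Sag* -1.23 ± 0.43, *Cngb3* -0.52 ± 0.26 and *Cngb1* -1.06 ± 0.40. *Pde6c* had -0.89 ± 0.51, against -1.25 ± 0.59 for *Pde6a* and -1.78 ± 0.40 for *Pde6b*, the only one of these counterparts called by DESeq2. The ranges of 1 standard error overlapped in 9 of the 9 pairings, and the differences were not tested.

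**Figure D3:**
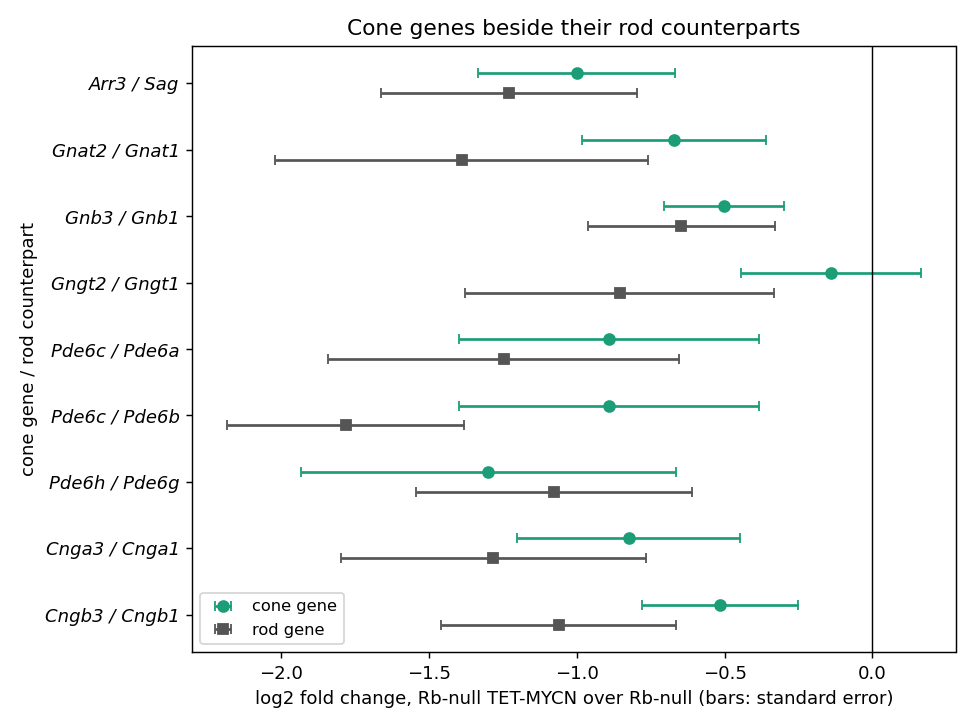
Log2 fold change of 8 cone genes of the cascade (green circles) and of their rod counterparts (grey squares), Rb-null TET-MYCN over Rb-null, x axis in log2 units, bars giving the standard error. All values lie left of 0, and Pde6b (-1.78) is the most negative.

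Rods and cones followed the same libraries. All 9 rod counterparts were highest in Rb-null 3, and 7 were lowest in TET-MYCN 4. Summed over the 10 genes, the cone level was 539, 604, 890 and 468 CPM in TET-MYCN 1 to 4, against 765, 616, 1395 and 1073 CPM in Rb-null 1 to 4. The rod counterparts summed to 3885, 2800 and 3956 CPM in TET-MYCN 1 to 3 and 1832 CPM in TET-MYCN 4, against 5170, 2402, 11046 and 8081 CPM in Rb-null 1 to 4. The 8 cone genes other than the opsins came to 12.3%, 18.9%, 19.3% and 21.7% of that rod sum in TET-MYCN 1 to 4, against 13.4%, 23.1%, 9.50% and 11.2% in Rb-null 1 to 4. This share was lowest in the 2 libraries richest in rod reads, Rb-null 3 and 4, and highest in Rb-null 2, one of the 2 libraries with the fewest. The rod sum is the divisor of this share, so a low share beside a high rod sum is partly built in. The cone part includes *Gnb3*, which ON bipolar cells also use. The rod sum includes *Gnb1*, at 1271, 1006, 1074 and 638 CPM in TET-MYCN 1 to 4. In Rb-null 1 to 4 *Gnb1* stood at 1385, 760, 2280 and 1818 CPM. Whether its reads come from rods alone was not tested.

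Cone-enriched genes outside the 10 were mixed. Of 11 listed, 10 were tested, 8 had negative fold changes (median -0.40 on the log2 scale) and 0 were called by edgeR, with 5 lower at an unadjusted p under 0.05 (7.72% of all genes). The 2 positive members reached at most 0.36. *Thrb*, *Rxrg* and *Sall3* stand on this list and on that of the regulators below. The 4 genes named next had the smallest unadjusted p of the list by edgeR and do not stand for all of it. *Kcne2*, a potassium channel accessory subunit, had -1.14 ± 0.44, *Kcnv2*, a potassium channel modifier of photoreceptors, -0.95 ± 0.37, *Slc24a2*, the cone sodium-calcium exchanger, -0.44 ± 0.19, and *Cnnm4*, a metal transporter needed by cones, -0.37 ± 0.12. *Slc24a2* had non-overlapping groups, as had 3.29% of all genes in that direction, at 33.95 ± 9.44 CPM in Rb-null TET-MYCN and 45.9 ± 4.42 CPM in Rb-null libraries.

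A list of photoreceptor cascade and visual cycle genes gave 14 of 15 negative values, a median of -0.94 and 0 calls by edgeR. Not all of them are genes of rods and cones alone. *Rlbp1* is also counted below among the Müller glia markers, and *Guca1a* stands on the cone-enriched list above as well. At an unadjusted p under 0.05 by edgeR, 9 of the 15 were lower and 1 was higher. Of all 15106 genes, 7.72% were lower and 1218 genes were higher at that threshold. *Grk1*, the opsin kinase, had a log2 fold change of -0.98 ± 0.33, *Gnb5* -0.84 ± 0.32 and *Rgs9* -0.82 ± 0.32, the last 2 coding for parts of the complex that switches transducin off. The single positive member was *Rdh5*, a retinol dehydrogenase known mainly from pigment epithelium, at 13.1 ± 4.60 CPM in Rb-null TET-MYCN and 7.11 ± 1.37 CPM in Rb-null libraries (0.88 ± 0.25, adjusted p = 0.184, edgeR), and it passed the test with DESeq2 only among the settings tried. Pigment epithelium markers summed to 11.4 to 20.9 CPM in Rb-null TET-MYCN and 11.1 to 32.3 CPM in Rb-null libraries.

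Regulators of opsin choice and photoreceptor fate were also examined. The median log2 fold change of 18 genes was -0.17, with 12 negative and 0 called by edgeR. *Crx*, the homeobox gene that activates photoreceptor genes, had -0.56 ± 0.22, and *Nr2e3*, which represses cone genes in rods, had -0.72 ± 0.27. *Dio3*, the deiodinase that inactivates thyroid hormone, had the smallest p of the list. It averaged 6.71 ± 3.45 CPM in Rb-null TET-MYCN and 1.95 ± 0.737 CPM in Rb-null libraries, with groups that did not overlap (1.78 ± 0.41, adjusted p = 0.157, edgeR), as in 4.36% of all genes with the Rb-null TET-MYCN libraries higher. *Dio3* passed the test by DESeq2 (adjusted p = 0.00258) and by edgeR without TET-MYCN 3, over alternatives whose adjusted p reached 0.537. *Nr2f1*, a nuclear receptor that takes part in the patterning of cone opsins, averaged 80.0 ± 25.5 CPM in Rb-null TET-MYCN and 48.0 ± 14.4 CPM in Rb-null libraries (0.74 ± 0.25, adjusted p = 0.218, edgeR).

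Because the opsins differ between dorsal and ventral retina, markers of both sides were counted. Dorsal genes gave 4 of 6 positive values with a median of 0.12, ventral genes 5 of 6 with a median of 0.25, and 0 were called by edgeR in either list. *Tbx5*, a dorsal transcription factor, had a log2 fold change of 0.46 ± 0.40, and *Tbx2*, another, had -0.23 ± 0.12. *Efnb2* and *Efnb1*, ephrins of the dorsal retina, had 0.31 ± 0.20 and 0.18 ± 0.12. *Vax1*, a factor of the optic stalk and ventral eye, averaged 2.22 ± 1.35 CPM in Rb-null TET-MYCN and 0.571 ± 0.231 CPM in Rb-null libraries (1.94 ± 0.45, adjusted p = 0.158, edgeR), and among the settings tried it passed the test with DESeq2 only. *Ephb3* and *Ephb2*, ventral receptors of ephrins, had 0.28 ± 0.14 and 0.21 ± 0.16, and *Ntn1* had 0.60 ± 0.32 at under 1 CPM in both groups on average.

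Markers of other cell types were summed in the same libraries. The 7 rod markers summed to 1720 to 4059 CPM in Rb-null TET-MYCN and 2582 to 10109 CPM in Rb-null libraries, with 7 of 7 negative. These rod markers are no separate set of genes. *Sag*, *Gnat1*, *Pde6b*, *Pde6g* and *Cnga1* were counted above as rod counterparts, and *Nrl* and *Nr2e3* among the regulators. Müller glia markers, *Rlbp1* of the visual cycle list among them, gave 6 of 6 negative values. Their sum did not overlap between groups, at 1635 to 2512 CPM in Rb-null TET-MYCN and 2825 to 4113 CPM in Rb-null libraries. Taken singly, 4 of the 6 had non-overlapping groups with Rb-null TET-MYCN lower, against 3.29% of all genes. Markers of dividing cells ran the other way, 5 of 5 positive, and their sum was 1338 to 1720 CPM in Rb-null TET-MYCN, against 1527, 1674, 680.3 and 1012 CPM in Rb-null 1 to 4, lowest in the 2 libraries highest in cone genes. Ciliary margin markers gave 4 of 4 tested positive values, with sums of 59.0 to 261 CPM in Rb-null TET-MYCN and 31.9 to 49.9 CPM in Rb-null libraries. Singly, 2 of these 4 had non-overlapping groups with Rb-null TET-MYCN higher, against 4.36% of all genes. Horizontal cell markers summed to 63.4 to 287 CPM in Rb-null TET-MYCN and 81.2 to 116 CPM in Rb-null libraries, and sums for amacrine, ganglion, endothelial and microglial markers overlapped between the groups. None of the listed markers of these cell types was at 0 in all libraries. The part of these cells in the cone result was not tested.

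**Figure D4:**
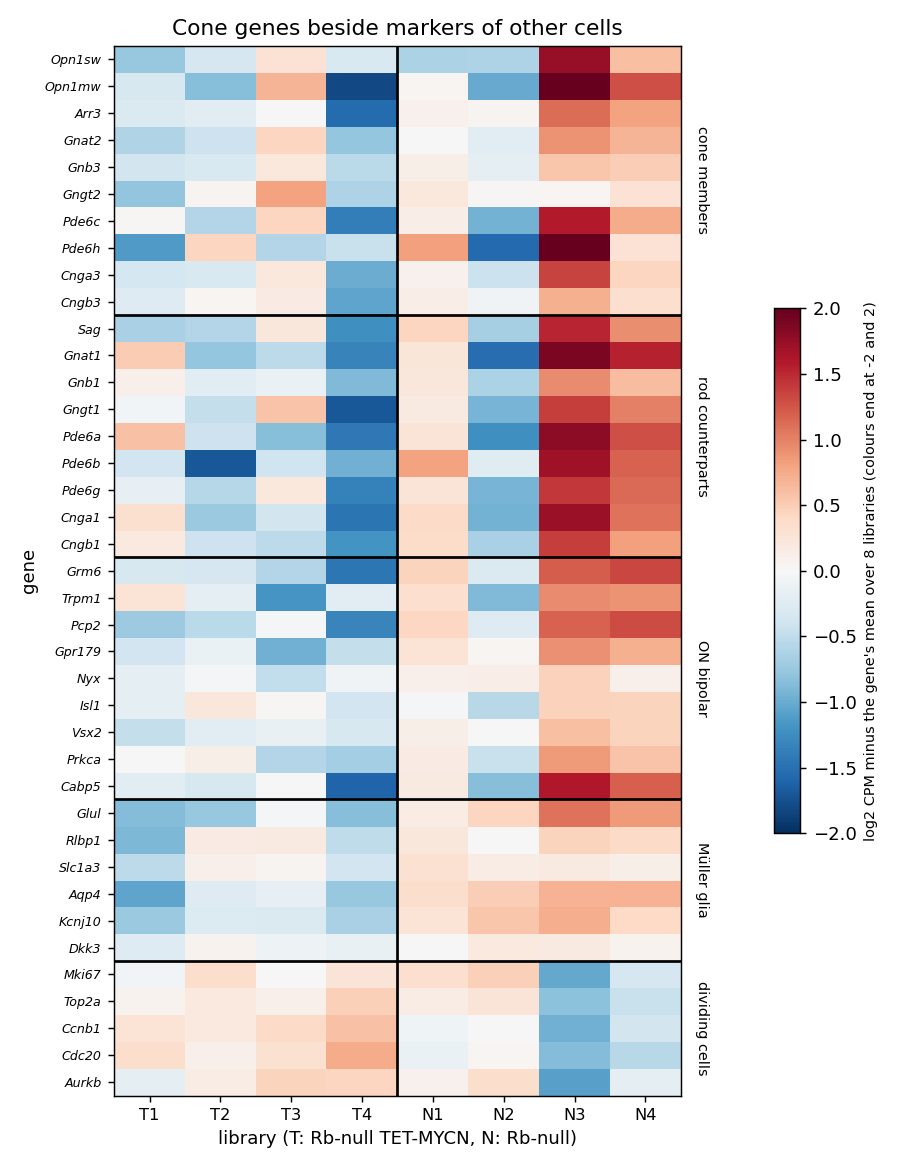
Log2 CPM of each gene minus its mean over the 8 libraries (colour, red above and blue below the mean, ending at -2 and 2) for the 10 cone genes, 9 rod counterparts, and markers of ON bipolar cells, Müller glia and dividing cells (rows), in Rb-null TET-MYCN libraries 1 to 4 (T1 to T4) and Rb-null libraries 1 to 4 (N1 to N4). N3 and N4 are red for most cone, rod and bipolar genes and blue for dividing cells, and T4 is blue for most cone and rod genes.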

How the data were processed

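RNA-seq libraries of peripheral retina (4 Rb-null TET-MYCN, 4 Rb-null; oligo-dT selected, per the labels) were compared. Nothing in the labels says whether libraries are from different animals. The p-values therefore set group differences against the scatter of these libraries within groups, and that scatter may be technical. The authors deposited raw counts per gene symbol for each library. Per the submitters' processing notes, CASAVA 1.8.2, TopHat2 2.0.8b and HTSeq 0.5.4p3 were used with build mm9. Annotation and strand setting: not given in the sources used here. Summary rows that name no gene (28.3% to 31.7% of reads) were left out. Transcript and coding lengths come from GENCODE M21 (GRCm38), which need not be the authors' annotation.

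Counts were scaled by TMM, filtered with filterByExpr (15106 of 23284 genes kept) and tested with edgeR 4.0.16 (quasi-likelihood, robust, group only; R 4.3.3), with Benjamini-Hochberg adjustment at 0.05 over all genes tested. The opsin log2 ratio, with 0.5 added to each count, was tested by an exact permutation test. Alternatives were other scalings and filters, DESeq2 1.42.0, limma-voom (limma 3.58.1), a replicate block and left-out libraries. The tests were run on simulated counts with known changes first. The members and gene lists were chosen with earlier results of these data known. Besides the 10 genes, the naming rule took *Mycn*, *Rb1*, the rod counterparts, up to 4 genes with the smallest p in each list, and the 5 nearest profiles of *Opn1sw*, *Opn1mw* and *Arr3*; 2 genes that these rules take are not reported here and were left out of the lists and sums. Figures used matplotlib 3.10.9.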

Additional observations from a re-analysis of the deposited data

How the results depend on the processing

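None of the 10 cone genes was called by any of the scalings, filters and tools tried or with any library or pair left out. With 1 library left out, their median log2 fold change ranged from -1.07 without Rb-null 2 to -0.39 without Rb-null 3. It was -0.61 without Rb-null 2 and 3, the lens-rich pair, and -1.23 without Rb-null 1 and TET-MYCN 3, which hold the highest shares of multiply aligned reads in their groups. Of all genes, 9 were called, but 17 with no filter on low counts, 539 with DESeq2, 0 with limma-voom, 0 without the lens-rich pair, 41 without the second pair, and 0 to 230 with 1 library left out. The opsin log2 ratio difference ran from 0.20 to 0.85 with 1 library left out, none past the threshold. It was 0.98 without the lens-rich pair (p = 0.133, exact permutation test), where the smallest p possible is 0.0667, so that setting could not pass. Depth limited none of the 10 genes, whose lowest count was 78.

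No label says that replicate numbers pair the libraries, and deviations of same-numbered libraries correlated at -0.04, -0.06, -0.12 and -0.29 across genes. With the replicate block 3 genes were called in all, 0 of them cone genes, and the opsin difference had p = 0.375 (exact permutation within replicate numbers, which cannot go below 0.125).

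With 1 library left out, the log2 fold change of *Gngt2* ran from -0.55 to 0.0426 (0.0215 without TET-MYCN 4), of *Mycn* from -0.17 to 0.31, of *Rb1* from -0.14 to 0.0357 (0.0137 without Rb-null 1) and of *Vax2* from -0.29 to 0.0376 (0.0041 without TET-MYCN 1), each changing sign; without the lens-rich pair *Vax2* stood at 0.0903. DESeq2 called *Dio3*, *Pde6b*, *Vax1*, *Rdh5* and *Vsx1*, and edgeR called *Dio3* without TET-MYCN 3. The cause was not tested. The other 902 values of named genes kept their direction and side of the threshold, and *Ntn1* had no adjusted p with DESeq2.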
